A study of Mus musculus with 4 samples.

Results

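The genes described here are 40 mouse genes of mitosis, taken as a named list. The list was drawn up with earlier results of these data known, so counts of its higher genes are a description. It covers cyclins and *Cdk1*, mitotic kinases, the chromosomal passenger complex, centromere and kinetochore proteins, the spindle checkpoint and spindle assembly factors. It also covers ubiquitination factors of mitotic entry and exit, and motors and scaffolds of the midzone and cytokinesis. All 40 were among the 27998 genes counted. They were followed by their unique molecular identifiers (UMIs, 1 per captured RNA molecule), gene by gene and summed, in satellite cells of 4 mouse strains.

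Each strain gave 1 library of satellite cells from the hindlimb muscles of 2 pooled mice. Cells were sorted as negative for Cd11b, Sca1, Cd45 and Cd31 and positive for α7-integrin and VCAM1, and counted with 10X 3′ V3.1 chemistry. The non-dystrophic strains were B10 (labelled C57/Bl10ScsSn, 15 weeks of age) and DBA (DBA/2, 13 weeks). The dystrophic strains were *mdx* (C57BL/10ScSn-Dmdmdx, 11 weeks), which carries a null mutation of *Dmd* on the B10 background, and D2-*mdx* (D2.B10-Dmdmdx, 14 weeks), which carries it on the DBA/2 background. Age differed between the strains, so genotype, age and library cannot be told apart. With 1 library per strain there was no replicate and no test, and every difference below compares libraries. Intervals are 95% and cover counting error only. UMIs of 1 cell are not independent, so where few cells held most UMIs the intervals are too narrow.

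Cells that divide switch on the genes of mitosis together late in the cell cycle, when cyclin B and Cdk1 drive chromosome condensation, spindle assembly and attachment of chromosomes at the kinetochore. The spindle checkpoint holds the anaphase-promoting complex until every chromosome is attached, and the cell then divides at the midzone. Satellite cells of resting adult muscle are mostly quiescent, and enter the cycle as myogenic progenitors after damage. Many mitosis genes share a promoter element, the cell cycle genes homology region (CHR), read by the DREAM and MuvB complexes, and CCAAT boxes read by NF-Y.

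Promoters were therefore read first, as RefSeq gives them on GRCm38.p6, from 250 bases before to 50 bases after the start of transcription. Entries were found for 34 of the 40 genes, and *Ect2* and *Prc1* had 2 each. *Ccna2*, *Aurkb*, *Kif20a*, *Pbk*, *Incenp* and *Tpx2* had none. The letters TTTGAA or TTCGAA (CHR) or CCAAT were searched on both strands. CHR letters lay in 28 of the 34 genes, or 83.3% of their 36 entries, against 19.2% of all 32851 entries. Within 50 bases on either side of the start they lay in 26 genes, or 77.8% of entries, against 5.31% of all. CCAAT lay in 26 genes, or 77.8% of entries, against 37.4% of all. Both were present in 23 genes, and neither in *Birc5*, *Nuf2* and *Nusap1*. A match is a description of letters, not a shown binding site, and a missing match says only that the letters are not in this window.

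The 4 promoters below belong to genes at the extremes of the strain ratios, among the 29 whose RefSeq start lies within 100 bases of the annotated gene start. *Plk1* at chr7:122159185-122159484 and *Birc5* at chr11:117848987-117849286 had high dystrophic ratios. *Ttk* at chr9:83834439-83834738 and *Kif20b* at chr19:34922108-34922407 had low ones. All are on the plus strand, and capitals mark CHR and CCAAT letters of either strand, of which *Birc5* had none.
Plk1: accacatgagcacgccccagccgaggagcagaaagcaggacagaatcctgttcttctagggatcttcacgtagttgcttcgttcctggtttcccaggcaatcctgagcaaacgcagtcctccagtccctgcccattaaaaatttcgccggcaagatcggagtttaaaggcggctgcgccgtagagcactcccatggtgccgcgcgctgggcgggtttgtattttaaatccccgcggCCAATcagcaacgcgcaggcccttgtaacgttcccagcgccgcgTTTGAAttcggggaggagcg
Ttk: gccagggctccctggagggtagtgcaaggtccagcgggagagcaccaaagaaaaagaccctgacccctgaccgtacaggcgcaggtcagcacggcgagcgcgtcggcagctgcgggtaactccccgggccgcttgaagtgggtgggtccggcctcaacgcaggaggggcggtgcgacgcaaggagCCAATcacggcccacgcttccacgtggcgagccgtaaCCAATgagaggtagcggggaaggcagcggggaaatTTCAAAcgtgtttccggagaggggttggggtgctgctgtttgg
Birc5: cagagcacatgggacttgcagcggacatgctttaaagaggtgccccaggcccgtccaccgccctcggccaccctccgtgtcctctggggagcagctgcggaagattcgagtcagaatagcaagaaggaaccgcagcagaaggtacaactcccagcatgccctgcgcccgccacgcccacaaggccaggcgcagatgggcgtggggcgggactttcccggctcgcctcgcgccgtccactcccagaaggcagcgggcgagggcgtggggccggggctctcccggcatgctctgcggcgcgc
Kif20b: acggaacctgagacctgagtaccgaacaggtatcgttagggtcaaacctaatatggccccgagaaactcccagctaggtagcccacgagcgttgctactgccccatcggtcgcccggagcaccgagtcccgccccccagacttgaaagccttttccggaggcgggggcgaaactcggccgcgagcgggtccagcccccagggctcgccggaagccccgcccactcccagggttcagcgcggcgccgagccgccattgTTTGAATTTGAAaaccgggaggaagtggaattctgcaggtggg
*Ttk*, with the lowest ratio of *mdx* over B10, thus held the same 2 elements as *Plk1*, with the highest.

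Filtering left 4581 cells in B10 and 6313 in *mdx*, besides 3279 in DBA and 5756 in D2-*mdx*, of which 4418, 4820, 2700 and 4184 fell into myogenic clusters. Median depth of the myogenic cells lay between 6475 and 10295 UMIs, higher in the non-dystrophic libraries. Pairs of libraries shared 3 to 8 cell barcodes. The B10 library stood apart in that 4739 of its barcodes (47.7%) held under 1000 genes and were left out. As a check of the labels, *Dmd* was at 324 UMIs per 1000000 UMIs (CPM) in B10 but 120 in *mdx*, and at 287 in DBA but 94.4 in D2-*mdx*. The satellite cell marker *Pax7* was present in all, at 907, 424, 695 and 426 CPM in B10, *mdx*, DBA and D2-*mdx*.

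Transcripts of the mitosis genes were more abundant in the dystrophic libraries. Over all myogenic cells, the 40 genes summed to 81.5 CPM in B10 (interval 78.7 to 84.3, 3249 UMIs), 350 in *mdx* (344 to 356, 14123 UMIs), 133 in DBA (129 to 137, 4005 UMIs) and 793 in D2-*mdx* (784 to 803, 27694 UMIs). The order was D2-*mdx*, *mdx*, DBA and B10. Neighbouring intervals did not overlap, but they are too narrow where few cells held most UMIs. *mdx* exceeded B10 by a log2 ratio of 2.10 (2.05 to 2.16), and D2-*mdx* exceeded DBA by 2.58 (2.53 to 2.63). Between the dystrophic strains, D2-*mdx* over *mdx*, it was 1.18 (1.15 to 1.21), and between the non-dystrophic strains, DBA over B10, 0.71 (0.64 to 0.77). With the cells richest in mitosis-gene UMIs left out of every library (the mitosis-high cells defined below, an alternative chosen after seeing the data), the same ratios were 0.83, 1.71, 0.59 and -0.29, so the last turned round.

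Most of the genes shared the direction of the sum. In *mdx* over B10, 35 of 40 were at least 2-fold higher, against 7.49% of the 12131 genes that averaged at least 1 CPM over the pair, and the median log2 ratio was 2.40 against -0.05 over those genes. In D2-*mdx* over DBA, 39 of 40 were at least 2-fold higher, against 9.04% of 12252 genes, with a median of 2.79 against -0.09. In D2-*mdx* over *mdx*, 31 of 40 were, against 3.96% of 12164 genes, with a median of 1.21 against -0.02. In DBA over B10, 28 of the 40 genes averaged 1 CPM and 11 of them were at least 2-fold higher, against 3.49% of 12017 genes. That last count depended on the cells and genes counted. It was 0 of 13 without the mitosis-high cells (against 3.34% of all genes), 35 of 39 when the gene limits were widened to 500 and above without a ceiling (5.24%), and 18 of 40 with no minimum CPM (8.09%). No mitosis gene was 2-fold lower in the first 3 comparisons, against 7.26%, 8.33% and 2.77% of all genes. In DBA over B10 only *Ttk* was, against 3.44% of all genes. These counts of 2-fold lower genes in D2-*mdx* over *mdx* and in DBA over B10 lie near the shares of all genes. They are not read as a result about the mitosis genes.

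**Figure D1:**
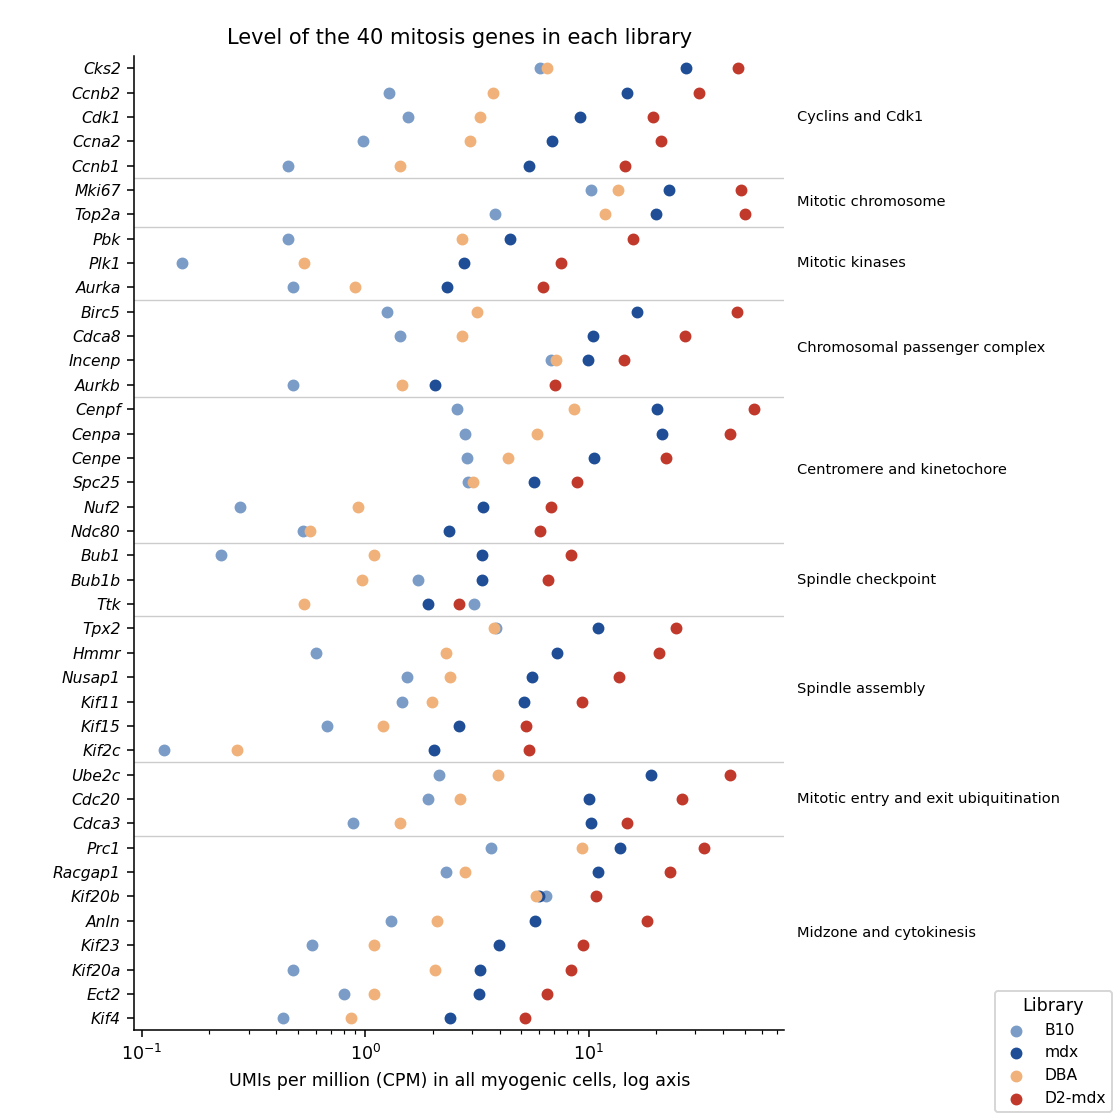
Level of each of the 40 mitosis genes in CPM over all myogenic cells (log axis), one point per library, grouped by role. D2-*mdx* lies furthest to the right for 39 genes, and *Ttk*, at 3.06 CPM in B10 against 2.64 in D2-*mdx*, is the exception.

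Cyclins and *Cdk1*, the kinase that drives entry into mitosis, were higher in both dystrophic libraries for 5 of 5 genes. *Ccnb2*, a cyclin B, was at 1.28 CPM in B10 against 14.9 in *mdx*, with 3.72 in DBA against 31.4 in D2-*mdx*. *Cks2*, a small subunit that binds the kinase, was at 6.04, 27.4, 6.51 and 46.6 CPM in the same order. The B10 and DBA values of *Cks2* lay within each other's intervals, whereas those of *Ccnb2* did not. The log2 ratio for *Ccnb2* was 3.54 (3.13 to 3.98) in *mdx* over B10 and 3.08 (2.80 to 3.37) in D2-*mdx* over DBA. *Cdk1*, *Ccna2* and *Ccnb1* had ratios of 2.56, 2.81 and 3.59 in *mdx* over B10 and 2.58, 2.83 and 3.35 in D2-*mdx* over DBA.

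Of the 2 genes of the mitotic chromosome, *Mki67* had the smaller ratios in both dystrophic comparisons. *Mki67*, which coats mitotic chromosomes and marks cycling cells, was at 10.2 CPM in B10 and 22.9 in *mdx*, then 13.6 in DBA and 48.3 in D2-*mdx*. Log2 ratios were 1.17 (1.00 to 1.34) in *mdx* over B10 and 1.83 (1.67 to 1.99) in D2-*mdx* over DBA. *Top2a*, the topoisomerase that untangles sister chromatids, was at 3.81, 20.1, 11.8 and 50.2 CPM, with ratios of 2.40 and 2.09. Both genes were higher in DBA than in B10, by 0.41 (0.21 to 0.61) and 1.63 (1.35 to 1.92) on the log2 scale.

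Among the mitotic kinases, *Plk1*, which acts from centrosome maturation to cytokinesis and whose promoter is printed above, had only 6 UMIs in B10 against 112 in *mdx*, with 16 in DBA against 262 in D2-*mdx*. Its log2 ratio of 4.205 in *mdx* over B10 was the highest of the 40, with a wide interval (3.04 to 5.68), and that of D2-*mdx* over DBA was 3.82 (3.09 to 4.65). *Pbk*, a kinase active in mitosis, was at 0.451, 4.43, 2.72 and 15.8 CPM in B10, *mdx*, DBA and D2-*mdx*. *Aurka*, which builds the spindle poles, had ratios of 2.29 and 2.80.

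The chromosomal passenger complex corrects faulty attachments of chromosomes. Its survivin subunit *Birc5* was at 1.25 CPM in B10 against 16.4 in *mdx*, with 3.15 in DBA against 46.4 in D2-*mdx*, with log2 ratios of 3.71 (3.30 to 4.16) and 3.88 (3.58 to 4.19) over the matched control. The borealin subunit *Cdca8* was at 1.43, 10.4, 2.72 and 27.2 CPM. *Incenp*, the scaffold of the complex, was at 6.77, 9.91, 7.17 and 14.4 CPM, so that its ratios of 0.55 (0.32 to 0.78) and 1.00 (0.77 to 1.24) were the smallest of the 4 subunits. The kinase subunit *Aurkb* had 19, 83, 44 and 247 UMIs, with ratios of 2.11 (1.38 to 2.91) and 2.28 (1.81 to 2.77).

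All 6 centromere and kinetochore genes were higher in the dystrophic libraries. *Cenpf*, which is loaded on kinetochores late in the cycle, was at 2.58 CPM in B10 and 20.3 in *mdx*, then 8.60 in DBA and 55.3 in D2-*mdx*. *Cenpa*, the histone that marks the centromere, was at 2.81, 21.4, 5.88 and 42.9 CPM. *Spc25*, of the NDC80 complex that grips microtubules, was at 2.88, 5.72, 3.02 and 8.88 CPM, and its ratio of 0.99 (0.66 to 1.32) in *mdx* over B10 fell just short of 2-fold. The other NDC80 subunits *Nuf2* and *Ndc80* had ratios of 3.61 and 2.18 in *mdx* over B10 and 2.87 and 3.43 in D2-*mdx* over DBA. The kinetochore motor *Cenpe* had ratios of 1.89 and 2.35.

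The 3 spindle checkpoint genes did not move alike. *Bub1* had 9 UMIs in B10 against 135 in *mdx*, with 33 in DBA against 290 in D2-*mdx*, with log2 ratios of 3.89 (2.92 to 5.05) and 2.92 (2.40 to 3.49). *Bub1b*, which codes for BubR1, a part of the checkpoint inhibitor itself, was at 1.73, 3.32, 0.963 and 6.59 CPM, with ratios of 0.94 (0.51 to 1.38) and 2.77 (2.21 to 3.39). *Ttk*, which codes for the MPS1 kinase that starts checkpoint signalling, had 122, 77, 16 and 92 UMIs, or 3.06, 1.91, 0.531 and 2.64 CPM. It was thus lower in *mdx* than in B10, by a log2 ratio of -0.68 (-1.11 to -0.26), and higher in D2-*mdx* than in DBA, by 2.31 (1.54 to 3.18). DBA was lower than B10 for *Ttk* by -2.53 (-3.38 to -1.77) and for *Bub1b* by -0.85 (-1.52 to -0.20). These were the only 2 genes whose interval lay below 0 in DBA over B10.

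In spindle assembly, 6 of 6 genes were at least 2-fold higher in each dystrophic library than in its control. *Tpx2*, which activates Aurora A on the spindle, was at 3.84 CPM in B10 and 11.0 in *mdx*, then 3.78 in DBA and 24.6 in D2-*mdx*. *Hmmr*, a spindle pole protein, was at 0.602, 7.18, 2.29 and 20.7 CPM. *Kif2c*, a kinesin that takes microtubules apart at the centromere, had 5, 82, 8 and 188 UMIs, and its log2 ratio of 4.34 (3.33 to 5.57) in D2-*mdx* over DBA was the highest of the 40. Ratios of *Nusap1*, *Kif11* and *Kif15* lay between 1.82 and 1.96 in *mdx* over B10 and between 2.13 and 2.52 in D2-*mdx* over DBA.

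Genes of mitotic ubiquitination were also higher in 3 of 3 cases. *Ube2c*, the E2 enzyme of the anaphase-promoting complex, was at 2.13 CPM in B10 against 19.1 in *mdx*, with 3.92 in DBA against 43.1 in D2-*mdx*. *Cdc20*, the activator of that complex that the checkpoint restrains, was at 1.91, 10.1, 2.66 and 26.1 CPM. Their log2 ratios were 3.17 (2.84 to 3.51) and 2.40 (2.05 to 2.78) in *mdx* over B10, and 3.46 (3.19 to 3.74) and 3.30 (2.96 to 3.64) in D2-*mdx* over DBA. *Cdca3*, which promotes mitotic entry, had ratios of 3.54 and 3.39.

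Of the 8 genes of the midzone and cytokinesis, 7 were at least 2-fold higher in each dystrophic library than in its control. *Prc1*, which bundles the midzone microtubules, was at 3.66 CPM in B10 and 13.9 in *mdx*, then 9.33 in DBA and 32.8 in D2-*mdx*. *Racgap1*, a component of centralspindlin, was at 2.31, 11.0, 2.79 and 23.3 CPM, and its partner motor *Kif23* at 0.577, 3.96, 1.10 and 9.48 CPM. *Kif20b*, a kinesin of late cytokinesis, was the exception, at 6.47, 5.99, 5.84 and 10.8 CPM. Its log2 ratio was -0.11 (-0.37 to 0.15) in *mdx* over B10 and 0.89 (0.62 to 1.15) in D2-*mdx* over DBA, the lowest of the 40 in the latter. *Anln*, *Kif20a*, *Ect2* and *Kif4* had ratios between 2.02 and 2.78 in *mdx* over B10 and between 2.02 and 3.13 in D2-*mdx* over DBA.

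**Figure D2:**
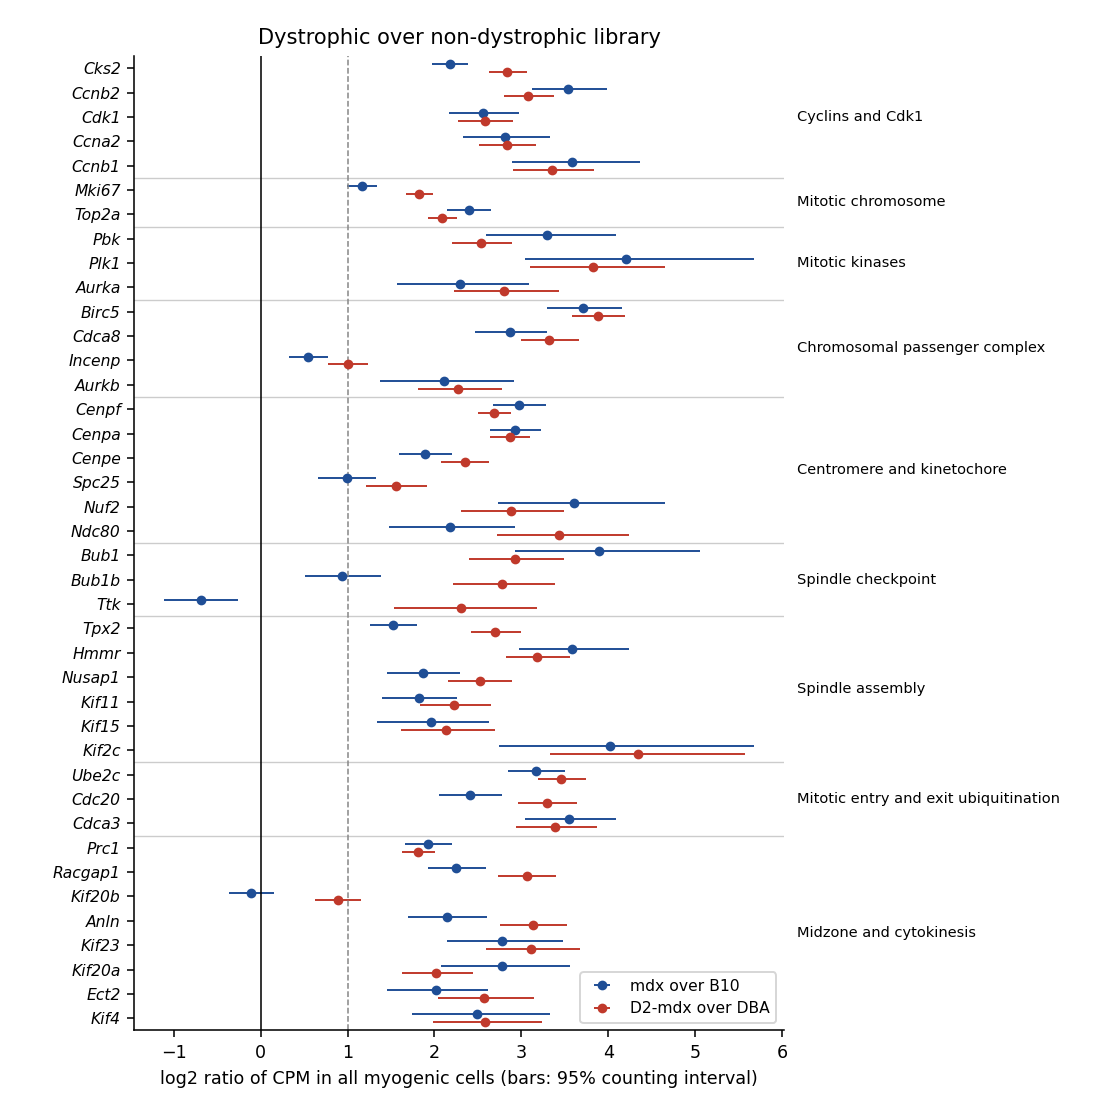
Log2 ratio of CPM over all myogenic cells for each of the 40 genes, in *mdx* over B10 and likewise in D2-*mdx* over DBA, with 95% counting intervals as bars; the dashed line marks a 2-fold difference. *Ttk* is the only gene with an interval below 0, at -0.68 in *mdx* over B10.

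Summed by role, the *mdx* over B10 log2 ratio was highest for the mitotic kinases at 3.15 (2.69 to 3.64) and ubiquitination at 3.004 (2.79 to 3.23), and lowest for the checkpoint at 0.77 (0.52 to 1.03). In D2-*mdx* over DBA it was highest for ubiquitination at 3.39 (3.20 to 3.59) and lowest for the mitotic chromosome at 1.95 (1.84 to 2.07), and the checkpoint stood at 2.76 (2.42 to 3.12). In DBA over B10 the checkpoint was the only role lower in DBA, at -0.95 (-1.35 to -0.57). *Ccnb1*, *Ccnb2* and *Kif4* have an annotated pseudogene copy, so the identity of some of their reads is uncertain. On the other strand, 7 of the genes overlap a gene (*Ccna2*, *Nusap1*, *Cdc20*, *Ube2c*, *Prc1*, *Kif4* and *Kif20a*). For these genes no overlap on the same strand was listed, and an effect on their counts was not tested.

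The myogenic cells fell into 5 classes named from marker genes, and the mitosis genes were concentrated in 1 of them. Because the mitosis genes took part in the clustering, levels across classes are a description. In cycling progenitor-like cells, named from DNA replication genes such as *Mcm5*, *Pcna* and *Tyms*, the sum was 605 CPM in B10 (151 cells), 2060 in *mdx* (418 cells), 1960 in DBA (94 cells) and 3080 in D2-*mdx* (515 cells). These cells were 3.42%, 8.67%, 3.48% and 12.3% of myogenic cells, and held 37.9%, 72.4%, 69.2% and 82.6% of all mitosis-gene UMIs. The level in this class depended on where the cluster ended. With the mitosis genes left out of the clustering it held 16, 268, 33 and 395 cells at 3966, 2967, 4619 and 3621 CPM. B10 then stood above *mdx*, and DBA above D2-*mdx*, so a higher level in dystrophic cells of this class was not kept. The share of UMIs in it was 35.6% in B10 and within counting error elsewhere. In muscle stem cell (MuSC)-like cells, the most numerous class, the sum was 53.1, 65.3, 36.1 and 85.4 CPM. In B10, whose myogenic cells were 91.3% MuSC-like, this low level still made up 57.6% of the UMIs, against 24.2% in DBA, and against 8.71% and 5.38% in *mdx* and D2-*mdx*.

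The next highest class was DMD-enriched-like, named from *Postn*, *Col1a1*, *Mest* and *Cdkn1c*, at 110, 188, 305 and 411 CPM in B10, *mdx*, DBA and D2-*mdx*. It held 16.0% of mitosis-gene UMIs in *mdx* and 10.5% in D2-*mdx*, where it had 929 and 579 cells, but only 41 cells in B10 and 50 in DBA. Differentiating myocyte-like cells, marked by *Myog* and *Actc1*, stood at 39.95, 91.8, 43.0 and 151 CPM. Immunomyoblast-like cells, 13 to 112 per library, stood at 52.0, 78.2, 29.4 and 84.7 CPM.

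**Figure D3:**
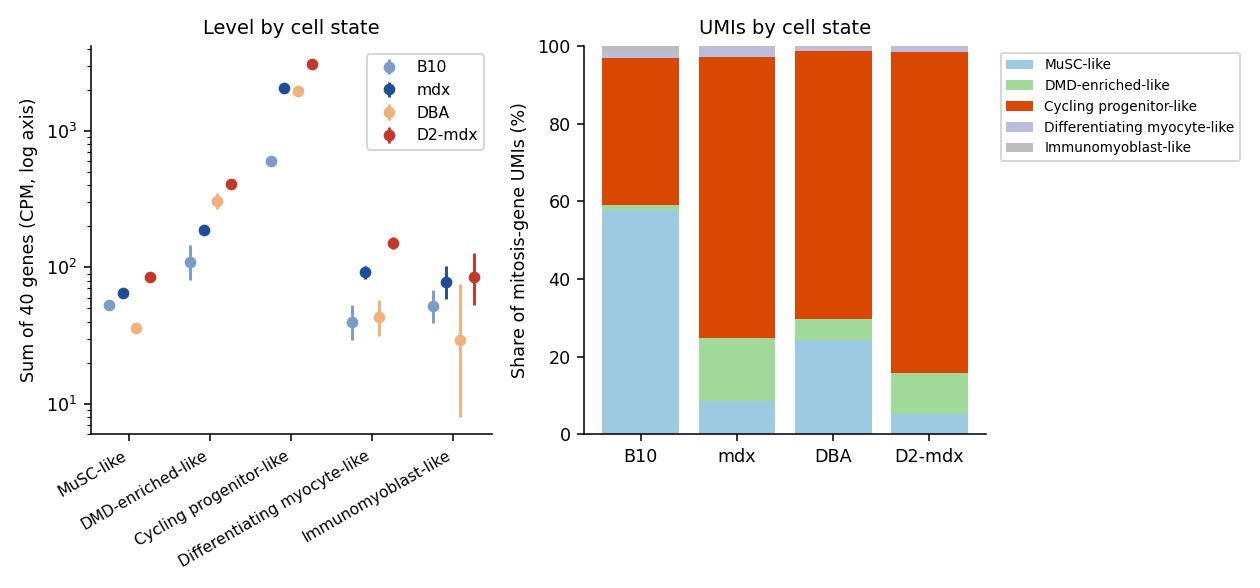
Left, summed CPM of the 40 mitosis genes in each myogenic class (log axis) with 95% Poisson intervals, one point per library; right, how each library's mitosis-gene UMIs divide among the classes in percent. Cycling progenitor-like cells are highest in every library, from 605 CPM in B10 to 3080 in D2-*mdx*, and hold 37.9% to 82.6% of the UMIs. The order of the libraries in this class changed with the clustering.

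Genes differed in how closely they kept to the cycling progenitor-like cells. Over the 4 libraries, 94.8% of *Pbk* UMIs (interval 93.1 to 96.2), 93.9% of *Aurkb* UMIs (91.0 to 96.0) and 92.7% of *Kif23* UMIs (90.2 to 94.7) lay there. The lowest shares were 43.4% for *Incenp* (40.7 to 46.0), 45.9% for *Ttk* (40.3 to 51.7) and 47.3% for *Kif20b* (44.2 to 50.4). The same 3 genes had the lowest log2 ratios of *mdx* over B10. Their shares in B10 were 9.26% of 270 UMIs, 4.10% of 122 and 6.98% of 258, against 63.9% of 502, 90.2% of 92 and 75.1% of 377 in D2-*mdx*.

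MuSC-like cells held most of the B10 UMIs of the checkpoint genes *Ttk* and *Bub1b*, the latter singled out after its values were seen. *Ttk* had 107 UMIs in 84 of the B10 MuSC-like cells and 27 in 25 of the *mdx* cells, but 3 in 3 cells of DBA and 3 in 3 cells of D2-*mdx*. *Bub1b* had 57 UMIs in 54 B10 cells and 23 in 22 *mdx* cells, and again 3 in 3 cells of DBA and of D2-*mdx*. Both genes were thus low in MuSC-like cells of the libraries on the DBA/2 background and higher on the B10 background, whether dystrophic or not. The log2 ratio of DBA over B10 was -4.76 (-7.06 to -3.18) for *Ttk* and -3.85 (-6.17 to -2.23) for *Bub1b*, and that of D2-*mdx* over *mdx* was -3.06 (-5.42 to -1.36) and -2.83 (-5.21 to -1.10). In mitosis-high cells, defined below, *Ttk* was at 26.6 CPM (2 UMIs) in B10 against 23.7 in *mdx*, with 48.3 in DBA against 22.7 in D2-*mdx*. In non-myogenic cells *Ttk* had 0, 8, 0 and 12 UMIs and *Bub1b* 0, 12, 4 and 14, so there the D2-*mdx* library was not below *mdx*.

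Over the 40 genes in MuSC-like cells the strain difference was smaller than in all myogenic cells. The median log2 ratio was 0.68 in *mdx* over B10, over the 38 genes with UMIs in both, against -0.09 over all 16106 such genes. Of the 17 mitosis genes that averaged at least 1 CPM there, 5 were at least 2-fold higher, against 4.49% of 11977 genes. In D2-*mdx* over DBA the median was 1.54 over 40 genes, against -0.07 over 15849, and 17 of 23 were at least 2-fold higher, against 5.85% of 12027 genes. In non-myogenic cells the median was 0.16 in *mdx* over B10 (18 genes) and 1.86 in D2-*mdx* over DBA (37 genes). In D2-*mdx* over *mdx* it was 1.11 there (40 genes). Higher levels in D2-*mdx* were thus not particular to MuSC-like or myogenic cells. The mix of non-myogenic types differed between libraries. At equal depth, 13.4% of B10, 17.0% of *mdx*, 9.66% of DBA and 21.0% of D2-*mdx* MuSC-like cells had any UMI of the 40 genes, at median depths of 8215, 5576, 10143 and 5566 UMIs before thinning. In pericyte-like cells, a non-myogenic type, the shares were 13.5%, 17.1%, 13.6% and 26.1% at median depths of 10655, 8030, 11076 and 6873 UMIs. The MuSC-like shares did not exceed these, but other non-myogenic types lay on both sides of them. In *mdx* the range ran from 3.45% in fibroblast or tenocyte-like to 37.3% in white blood cell-like cells. In D2-*mdx* it ran from 17.6% in vascular smooth muscle-like to 39.6% in white blood cell-like cells. Because some of these types had shares as high, a UMI of a mitosis gene in a MuSC-like cell was not read as a sign of mitosis. The part of free RNA in these UMIs was not tested.

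The distribution over single cells was therefore taken at an equal depth of 3000 UMIs per cell, drawn at random from each cell. Cells with at least 5 mitosis-gene UMIs of 3000 are called mitosis-high, which is a range of a continuous score and not a cell type. They were 4 of 4379 myogenic cells in B10 (0.0913%, interval 0.0249 to 0.234), 112 of 4820 in *mdx* (2.32%, 1.92 to 2.79), 15 of 2700 in DBA (0.556%, 0.311 to 0.915) and 238 of 4184 in D2-*mdx* (5.69%, 5.01 to 6.43). The share was 25.4 times that of B10 in *mdx* and 10.2 times that of DBA in D2-*mdx*, with log2 ratios of 4.67 (3.27 to 6.57) and 3.36 (2.60 to 4.22), the former resting on 4 B10 cells. Before thinning the shares with at least 5 UMIs were 0.543%, 4.73%, 1.22% and 10.1%. Near the limit, with 4 to 6 UMIs, lay 4, 22, 6 and 63 cells.

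**Figure D4:**
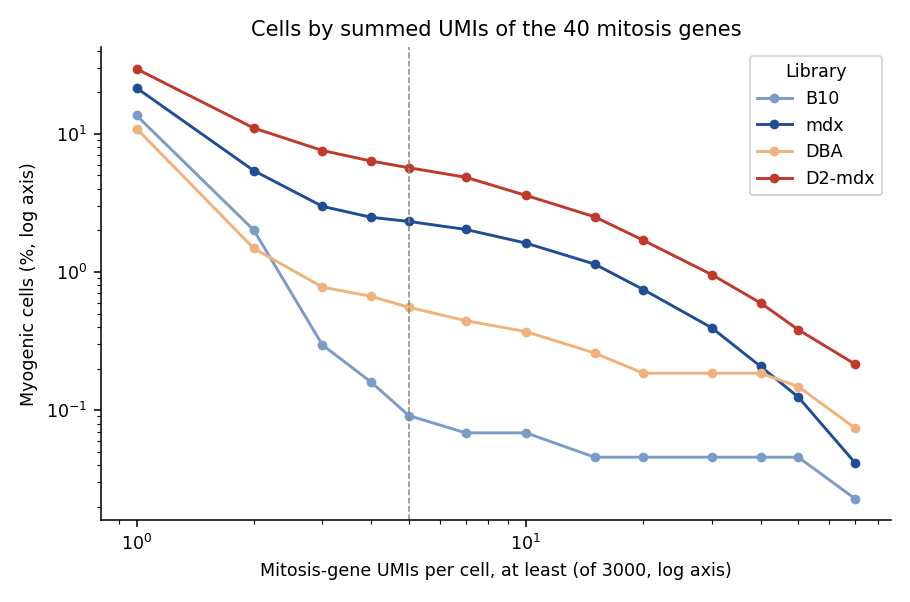
Share of myogenic cells (percent, log axis) with at least the number of mitosis-gene UMIs given on the x axis (of 3000 per cell, log axis), one line per library; the dashed line marks 5 UMIs. At that line the libraries lie at 0.0913% (B10), 0.556% (DBA), 2.32% (*mdx*) and 5.69% (D2-*mdx*).

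In *mdx*, DBA and D2-*mdx*, few cells carried most of the signal. Mitosis-high cells held 34.2% of all mitosis-gene UMIs in B10 against 73.9% in *mdx*, and 67.4% in DBA against 83.9% in D2-*mdx*. A single B10 cell held 651 of the 3249 UMIs (20.04%), and the top 2 cells 1035. In DBA the top cell held 462 (11.5%), and the 5 richest cells together held 50% of the UMIs, as did 37 cells in *mdx*, 61 in D2-*mdx* and 144 in B10. The DBA level, and the B10 level in cycling progenitor-like cells, thus rest on those few cells, whereas over all myogenic B10 cells 57.6% of the UMIs lay in MuSC-like cells, as given above.

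Most mitosis-high cells were cycling progenitor-like: 4 of 4 in B10, 90 of 112 (80.4%) in *mdx*, 13 of 15 (86.7%) in DBA and 194 of 238 (81.5%) in D2-*mdx*. The DMD-enriched-like class held 0, 22, 2 and 42 of them, 2 D2-*mdx* cells were differentiating myocyte-like and none was MuSC-like. There, 0 of 3995, 3104, 2475 and 2819 cells have interval limits of up to 0.0923%, 0.119%, 0.149% and 0.131%. Because the mitosis genes took part in the clustering, this absence is a description. The mean in the remaining myogenic cells was 0.157, 0.236, 0.117 and 0.337 mitosis-gene UMIs of 3000, against the 0.191, 0.258, 0.154 and 0.338 of non-myogenic cells that were not mitosis-high. Among non-myogenic cells, mitosis-high cells were 0 of 157 in B10 (interval up to 2.32%), 2 of 1493 in *mdx*, 1 of 579 in DBA and 15 of 1572 in D2-*mdx*. Of those in D2-*mdx*, 8 were white blood cell-like although the sort was negative for Cd45. White blood cell-like cells were also the non-myogenic type with the highest sum in *mdx*, DBA and D2-*mdx*, at 202, 442 and 482 CPM (110, 23 and 159 cells).

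Within mitosis-high cells, the median log2 ratio of the 40 genes in D2-*mdx* over *mdx* was -0.09, in a range from -0.63 (*Cdca3*) to 0.44 (*Pbk*). Intervals lay below 0 for 10 of the 40 genes and above 0 for 3. Mitosis-high cells were chosen by the sum of the same genes, so similar levels follow in part from the limit. Ratios of all other genes in these cells were not taken, so whether the likeness is particular to the mitosis genes was not tested. Against the few control cells the ratios were mostly below 0, with a median of -0.84 in *mdx* over B10 (39 genes) and -0.46 in D2-*mdx* over DBA (40 genes). A mitosis-high cell had UMIs of a median of 24 of the 40 genes in *mdx* and 23 in D2-*mdx*. *Mki67* and *Top2a* made up 12.6% and 12.7% of the mitosis-gene UMIs of these cells in *mdx* and D2-*mdx*, against 29.1% of 1112 UMIs in the 4 B10 cells and 24.3% of 2698 UMIs in the 15 DBA cells. The 4 B10 cells held 651, 384, 41 and 36 mitosis-gene UMIs and 39, 39, 18 and 12 of the genes, so the first 2 set their mean.

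Mitosis-high cells had more UMIs than other myogenic cells before thinning, with medians of 19012 against 8467 in B10, 13699 against 6766 in *mdx*, 18763 against 10272 in DBA and 15077 against 6321 in D2-*mdx*. The part of depth in the result was not tested beyond the equal depth used here. Markers of other cell types were below the level of their own type in mitosis-high cells, though some lists were above the level of other myogenic cells. Of 6 white blood cell markers, 0, 5, 4 and 6 had UMIs in B10, *mdx*, DBA and D2-*mdx*, at 0, 15.0, 193 and 66.1 CPM against 13603 in white blood cell-like cells and 0.755, 11.9, 3.25 and 37.0 in other myogenic cells. Of 6 endothelial markers, 0, 6, 1 and 6 had UMIs, at 11.2 CPM or less against 6295. Smooth muscle markers stood at 2045, 841, 1658 and 468 CPM against 409, 569, 502 and 809 in other myogenic cells, so they were higher in mitosis-high cells in all but D2-*mdx*. Their own type had 47788 CPM. In mitosis-high cells 2, 4, 3 and 4 of the 6 smooth muscle markers had UMIs, and *Pln* and *Rergl* were at 0 in every library. Pericyte, glial, Schwann and fibroblast or tenocyte markers lay between 0 and 452 CPM, against 9844, 2944, 52437 and 16018 in their own types, and 0 to 7 markers of each list had UMIs. The part of these UMIs in the result was not tested.

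S phase genes overlapped only in part with mitosis. At the same limit of 5 UMIs of 3000 for a list of 35 S phase genes, 3, 64, 9 and 147 cells passed both limits in B10, *mdx*, DBA and D2-*mdx*. Passing for S phase only were 43, 103, 28 and 124 cells, and for mitosis only 1, 48, 6 and 91. Cells past the S phase limit alone outnumbered those past both in B10, *mdx* and DBA, and D2-*mdx* was the exception. With finer clusters the cycling progenitor-like cells divided in 2. One cluster, of 113, 311, 64 and 257 cells, had a mitosis-gene sum of 95.8, 276, 224 and 374 CPM. The other, of 4, 122, 13 and 268 cells, had 15623, 5197, 12389 and 4834 CPM. S phase genes summed to 971, 1592, 1763 and 2140 CPM in the former and 2903, 2079, 3608 and 2241 CPM in the latter. The cluster richer in mitosis genes was thus also the richer in S phase genes in every library, and the 2 clusters do not separate the phases.

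Other genes of the pathway were read from lists, whose counts stand beside the 7.49% of all genes that were at least 2-fold higher in *mdx* over B10 and the 9.04% in D2-*mdx* over DBA. Of the 31 other G2/M genes above 1 CPM in *mdx* and B10, 14 were at least 2-fold higher in *mdx* (median log2 ratio 0.85), and of 41 in D2-*mdx* and DBA, 28 were (median 1.88). *Tubb4b*, a tubulin, had ratios of 0.05 and 0.99, and *Hmgb2*, a chromatin protein, 0.65 and 1.41. Of 35 S phase genes, 13 and 21 were 2-fold higher, with medians of 0.61 and 1.18. Among them the helicase subunit *Mcm7* had ratios of 0.30 and 0.56, and *Tipin*, of the replication fork, 0.01 and 0.58.

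Genes listed as regulators had smaller ratios. Whether they act on these promoters in these cells was not tested. Of 19 and 20 transcription regulators above 1 CPM, 2 and 3 were at least 2-fold higher, near these shares of all genes, with medians of 0.10 and 0.14. *Rbbp4*, a MuvB subunit, had log2 ratios of 0.12 and 0.16 and the E2F partner *Tfdp2* 1.32 and 0.23, again *mdx* over B10 first. Of 17 subunits and regulators of the anaphase-promoting complex, 0 and 2 were 2-fold higher. *Ube2s*, its chain-elongating E2, had ratios of 0.63 and 1.05, and the subunit *Anapc11* -0.03 and -0.12.

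Of 7 inhibitors of cyclin-dependent kinases, 4 were at least 2-fold higher in both dystrophic comparisons, against the same 7.49% and 9.04% of all genes. *Cdkn1b* and *Cdkn2c* were lower in both, with log2 ratios of -0.09 and -0.45 in *mdx* over B10, then -0.57 and -0.21 in D2-*mdx* over DBA. *Cdkn1c*, which codes for p57, was at 31.1 CPM in B10 and 1040 in *mdx*, then 51.6 in DBA and 551 in D2-*mdx*, and *Cdkn1a*, which codes for p21, at 39.6, 179, 46.7 and 206 CPM. Within the dystrophic libraries *Cdkn1c* was lower in mitosis-high cells than in other myogenic cells, at 232 against 1073 CPM in *mdx* and 118 against 603 in D2-*mdx*. Its shares of cells with a UMI at equal depth lay closer, at 22.3% (interval 15.0 to 31.2) against 32.8% and 16.4% (11.9 to 21.7) against 21.7%. *Cdkn1a* differed less in CPM, at 148 against 180 and 229 against 204. Its shares were 31.25% (22.8 to 40.7) against 27.6% in *mdx*, but 42.0% (35.7 to 48.6) against 29.6% in D2-*mdx*. Among the myogenic stage genes, *Pax7* had ratios of -1.10 and -0.71 and *Myf5* of -0.19 and -0.41. At equal depth *Pax7* was detected in 24.1% of 112 mitosis-high cells against 69.4% of other myogenic cells in *mdx*, and in 24.8% of 238 against 71.0% in D2-*mdx*. In DBA it was detected in 10 of 15 mitosis-high cells (66.7%, interval 38.4 to 88.2) against 82.8% of other myogenic cells. In B10 it was detected in 2 of 4 against 90.4%.

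Over 30 class and library groups of at least 50 cells, the genes outside the lists whose log2(CPM + 1) followed that of the summed mitosis genes most closely were *Aspm* (Pearson's r 0.957), *Ska1* (0.933), *Mcm10* (0.907), *Spc24* (0.902) and *Ankle1* (0.899). Among the 40 genes themselves, r against the sum ranged from 0.585 for *Ttk* to 0.959 for *Nuf2*. The groups share libraries and depth, and r is given as a description.

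The upper limit of 5000 genes per cell removed many of the mitosis-gene UMIs. Barcodes above it were 41 in B10 against 213 in *mdx*, with 128 in DBA against 498 in D2-*mdx* (0.413%, 2.97%, 3.62% and 7.34% of barcodes), yet held 27.7%, 58.3%, 73.1% and 71.2% of each library's mitosis-gene UMIs. Their sum stood at 1311, 2773, 2681 and 3856 CPM. Kept cells held 63.8%, 37.1%, 26.01% and 25.4%. By their nearest kept neighbours, 26, 165, 70 and 423 of those barcodes were myogenic, and 19.2%, 49.7%, 30% and 66.0% of these were mitosis-high. The sum in these myogenic barcodes stood at 1947, 3049, 3826 and 4053 CPM. The doublet caller marked 6, 44, 14 and 50 of all barcodes above the limit. With no upper limit, and from 500 genes, the log2 ratio of the sum was 2.68 in *mdx* over B10, 2.05 in D2-*mdx* over DBA, 1.37 in D2-*mdx* over *mdx* and 2.00 in DBA over B10.

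**Figure D5:**
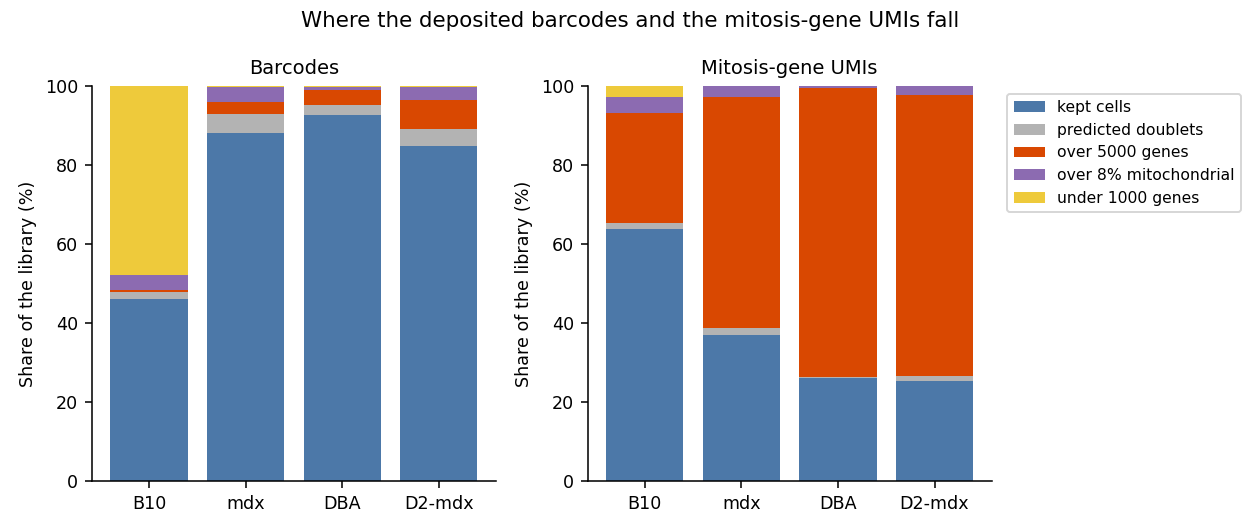
Percent of each library's deposited barcodes (left) and of its mitosis-gene UMIs (right) in kept cells, predicted doublets and barcodes outside the limits, one bar per library. Barcodes over 5000 genes are 0.413% to 7.34% of barcodes and hold 27.7% to 73.1% of the UMIs.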

How the data were processed

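The authors deposited UMI counts per gene and barcode from Cell Ranger 3.0.1 and mm10 (per the submitters' processing notes). Kept barcodes held between 1000 and 5000 genes and no more than 8% mitochondrial UMIs, and doublets called by Scrublet (scanpy 1.11.5, expected rate 0.008 per 1000 cells) were removed, 2.70% to 5.34% per library. Cells were integrated and clustered in Seurat 5.3.0 by anchors (2000 features, 30 dimensions), with a resolution of 0.1 over the whole set and 0.2 within the myogenic clusters. Names followed marker lists. 1 cluster scored 0.387 for myonuclei and 0.319 for MuSC, had no myonuclear marker among its leading genes and was kept as MuSC-like. UMIs were summed per library and class and scaled to the total of the same cells (CPM). Intervals were exact Poisson for CPM and Clopper-Pearson for shares, and ratios came from exact binomial shares. Genes entered a count at a mean of 1 CPM. Cells were thinned to 3000 UMIs, which left out 39 shallow myogenic B10 cells. Scaling by edgeR 4.0.16 (TMM) and DESeq2 1.42.0 size factors were alternatives. Interval coverage was tested on simulated independent counts only, and not on UMIs grouped in few cells as in these libraries.

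Values in every library were given for the 2 genes of each role with the most UMIs, the 3 highest and 3 lowest log2 ratios in each dystrophic comparison, the 3 largest and 3 smallest shares in cycling progenitor-like cells, the 2 most counted genes of each other list, and the 5 unlisted genes most alike in pattern. The genes and lists were chosen with earlier results of these data known. Gene positions came from GENCODE M21. There were no replicates.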

Additional observations from a re-analysis of the deposited data

Results flagged for a closer look

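The following results stood out by a fixed rule. *Ttk* and *Kif20b* differed in sign between the backgrounds. The log2 ratio of *Ttk* was -0.68 in *mdx* over B10 and 2.31 in D2-*mdx* over DBA, and that of *Kif20b* was -0.11 and 0.89. The interval of *Kif20b* in *mdx* over B10, given above, spans both signs, so no direction is shown there. Its ratio in D2-*mdx* over DBA turned negative where cells rich in mitosis-gene UMIs were left out. With 1 library per strain, these differences between backgrounds were not tested. In barcodes above 5000 genes, which enter comparisons only under the wider gene limits, the summed mitosis genes stood at 2773 CPM in *mdx* and 3856 CPM in D2-*mdx*, above the 1311 and 2681 CPM of the same barcodes in B10 and DBA.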

How the results depend on the processing

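No paired analysis was possible because each strain is 1 library, and there was no replicate to leave out. Of 148 summary values under alternatives, 65 stayed within a set limit, 81 moved further and 2 changed direction. The limit was counting error for ratios, shares and levels, and a fixed fold change for counts of genes, which have no interval. Ratios are listed for *mdx* against B10, for D2-*mdx* against DBA, for D2-*mdx* against *mdx* and for DBA against B10, and library values as B10, *mdx*, DBA and D2-*mdx*.

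The log2 ratio of the sum (2.10, 2.58, 1.18 and 0.71) was 2.68, 2.05, 1.37 and 2.00 with at least 500 genes and no upper limit, 1.85, 2.36, 1.12 and 0.60 over all kept cells, 1.745, 2.255, 1.06 and 0.55 as a mean over cells, and 0.30, 1.24, 0.39 and -0.56 in MuSC-like cells only. Leaving mitosis-high cells out of every library, an alternative chosen after seeing the data, gave 0.83, 1.71, 0.59 and -0.29. At most 5% mitochondrial UMIs gave 1.95 and 2.44 in the first 2, DESeq2 size factors 2.16 and 2.66, and TMM 2.63 in D2-*mdx* over DBA. The median of the genes' own ratios was 2.40 and 2.79 in the first 2 and 0.92 in the last. Without the 5 genes with the most UMIs the sum gave 2.67 in D2-*mdx* over DBA and 0.63 in DBA over B10, and with doublets kept 1.22 in D2-*mdx* over *mdx*.

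The count of genes at least 2-fold higher (35, 39, 31 and 11) was 5, 17, 7 and 0 in MuSC-like cells only. It was 12, 18, 8 and 0 without mitosis-high cells, and 6, 19, 18 and 0 at a minimum of 10 CPM. Fewer genes reached the minimum under each of these settings, so these counts are not read as falls from the first. In MuSC-like cells 17 and 23 genes did in the first 2 comparisons, where 4.49% and 5.85% of all genes were at least 2-fold higher. In DBA over B10 the count was 35 with at least 500 genes and no upper limit and 18 with no minimum, beside the shares of all genes given above. Counts of this paragraph without a share of all genes here or above are not read as a result about the mitosis genes.

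The percent of mitosis-high cells (0.0913, 2.32, 0.556 and 5.69) was 0.543, 4.73, 1.22 and 10.1 with no thinning. With at least 500 genes and no upper limit *mdx* stood at 3.76, DBA at 1.30 and D2-*mdx* at 10.5. From 3 UMIs it was 0.297 in B10, 2.99 in *mdx* and 7.58 in D2-*mdx*. In *mdx* and D2-*mdx* it was 1.62 and 3.59 from 10 UMIs, 1.83 and 4.52 thinned to 2000 UMIs, and 3.47 and 8.76 thinned to 5000. D2-*mdx* stood at 5.00 with at most 5% mitochondrial UMIs and at 4.90 without the 5 genes.

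The CPM in cycling progenitor-like cells (605, 2060, 1960 and 3080) was 3966, 2967, 4619 and 3621 with the mitosis genes left out of the clustering, 3963, 2510, 4013 and 3152 without integration, and 792, 2250, 2419 and 3262 with 20 dimensions. At resolution 0.4 it was 760, 2018 and 2305 in the first 3 libraries. With the mitosis genes left out, and likewise without integration, B10 thus stood above *mdx* and DBA above D2-*mdx*. The percent of UMIs in these cells (37.9, 72.4, 69.2 and 82.6) was 35.6 in B10 with the mitosis genes left out and 35.9, 76.3, 71.9 and 89.3 without integration.

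Of 398 values of single genes, 268 moved by less than counting error, 118 moved further and 12 changed direction, all 12 where cells rich in mitosis-gene UMIs were left out. In MuSC-like cells only, the *mdx* over B10 ratio was -0.094 for *Aurkb*, -0.31 for *Incenp*, -0.094 for *Bub1*, -0.40 for *Bub1b*, -0.44 for *Tpx2* and -0.22 for *Cdc20*, and that of *Kif20b* in D2-*mdx* over DBA was -0.23. Without mitosis-high cells, it was -0.087 for *Incenp*, -0.0066 for *Spc25*, -0.61 for *Bub1b* and -0.62 for *Tpx2*, and that of *Kif20b* in D2-*mdx* over DBA was -0.35. Depth limits the genes with few control UMIs, such as *Plk1*, *Kif2c* and *Bub1* in B10.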

Other observations

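Some regulators and inhibitors, named here after their values were seen, stood apart from their lists. *E2f8*, a repressor of the E2F family that is made in cycling cells, had 13 UMIs in B10 against 87 in *mdx*, with 8 in DBA against 162 in D2-*mdx*. *Mybl2*, the MYB protein that joins the MuvB complex at mitosis promoters, had 18, 45, 8 and 83 UMIs, and *Foxm1*, which follows it there, 43, 78, 74 and 161. By contrast, *Lin54*, the MuvB subunit that contacts CHR letters, was at 11.3 CPM in B10 and 8.30 in *mdx*, with a log2 ratio of -0.45 (-0.66 to -0.24), and at 9.76 in DBA and 7.73 in D2-*mdx*. *Nfya*, of the factor that contacts CCAAT, was at 17.2, 12.6, 12.8 and 9.88 CPM in B10, *mdx*, DBA and D2-*mdx*.

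The kinase inhibitor and senescence marker *Cdkn2a* was detected in part of the mitosis-high cells of *mdx* and D2-*mdx*. At equal depth it was detected in 0 of 4 such cells in B10 and 0 of 15 in DBA (intervals up to 60.2% and 21.8%). Its level was 1.20 CPM in B10 but 73.1 in *mdx*, with 2.29 in DBA but 107.8 in D2-*mdx*, over all myogenic cells. In mitosis-high cells it was at 130 CPM in *mdx* and 136 in D2-*mdx*, against 70.8 and 104 in other myogenic cells, and at equal depth it was detected in 33.9% of 112 (interval 25.3 to 43.5) and 30.3% of 238 (24.5 to 36.5) against 15.1% and 19.4%. The CPM of *Myog*, which starts terminal differentiation, was lower in mitosis-high cells, at 35.6 against 327 CPM in *mdx* and 59.9 against 285 in D2-*mdx*, but its share of cells with a UMI at equal depth was close, at 4.46% (interval 1.47 to 10.1) against 5.71% and 8.82% (5.55 to 13.2) against 7.93%. *Myod1* stood at 192 against 148 and 221 against 205 CPM.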
